A study of Mus musculus with 8 samples.

Results

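The 10 genes described here belong to threonine, glycine and serine metabolism and were measured in mouse morulae cultured with A485, a small molecule that blocks the histone acetyltransferases p300 and CBP. The genes are Tdh, Gcat, Gldc, Amt, Gcsh, Shmt1, Shmt2, Mthfd2, Phgdh and Psat1. They are 10 of the 18257 genes of the deposited table, found there by symbol. The set was built around Tdh because Tdh was among the largest falls between A485 and control embryos. The values that follow for that comparison are therefore a description of the 10 genes and support no claim about them.

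The 4 control libraries came from wild-type embryos kept in KSOM medium with 0.1% DMSO, and the 4 A485 libraries from wild-type embryos kept in KSOM with 2 µM A485. Culture began at the 4-cell stage in both groups, and the samples are labelled as morulae. Each library was made from a pool of 3 embryos freed of the zona pellucida, so it averages over all cells of 3 embryos. The labels give culture to the blastocyst stage in both groups, and which part of it preceded collection is not stated. A485 was given at a single dose. In RNA from whole embryos, fewer cells of a type and less RNA per cell cannot be told apart.

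Total estimated counts were 23641781 to 25677701 per library, with no detectable difference between the groups (exact two-sided permutation test over 70 assignments, p = 0.371). The 50 most abundant genes took 21.6 to 22.6% of counts in control libraries and 18.1 to 20.3% in A485 libraries (the same exact test, p = 0.029, the smallest it can give). Genes with at least 1 count numbered 15007 to 15391 in control and 15516 to 16025 in A485 libraries (the same exact test, p = 0.029). A485 libraries also varied more among themselves. The chi-square per degree of freedom between 2 libraries of a group was 18.8 to 33.1 for controls, 64.2 for A485 replicates 1 and 2, 57.8 for A485 replicates 3 and 4, and 115.7 to 199.3 for the other A485 pairs. Results that rest on 1 of these pairs are given with and without it.

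Serine is made from the glycolytic intermediate 3-phosphoglycerate by Phgdh, Psat1 and Psph in turn. Serine hydroxymethyltransferases, Shmt1 in the cytosol and Shmt2 in mitochondria, convert serine to glycine and load a carbon unit onto tetrahydrofolate. The mitochondrial glycine cleavage system, in which Gldc, Amt and the lipoate-bearing carrier Gcsh work with Dld, releases another carbon unit from glycine. Tdh and Gcat split threonine into glycine and acetyl-CoA inside mitochondria. Threonine breakdown by Tdh is known as a feature of mouse embryonic stem cells and of the inner cell mass.

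All 10 genes passed the filter on low counts. In control morulae the level per transcript length, in TPM (reads scaled to transcript length and library total), was highest for Gcsh at 1273 ± 121 (SD, n = 4). Psat1 followed with 521 ± 26.6 TPM and Phgdh with 176 ± 42.6 TPM (SD, n = 4 each), and the ranges of these 3 genes did not overlap. Next came Amt (51.4 TPM), Shmt1 (44.6 TPM), Tdh (43.4 TPM), Gldc (38.4 TPM) and Shmt2 (29.5 TPM). The ranges of neighbours among these 5 genes overlapped, so the order of neighbours lies within the spread between libraries. The control range of Shmt2 (25.3 to 37.2 TPM) lay below those of Shmt1 (40.1 to 51.7 TPM) and Tdh (38.0 to 53.9 TPM). Mthfd2, with 18.7 ± 2.21 TPM, and Gcat, with 14.1 ± 1.23 TPM (SD, n = 4 each), were the lowest, and their ranges were separate. Gcsh was at percentile 98.8 of control TPM among the genes tested and Gcat at percentile 71.4.

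In the A485 libraries Gcsh and Psat1 kept the first and second place, at means of 438 and 172 TPM. Tdh went from place 6 to place 10. Shmt2, Amt and Phgdh then stood at 32.9, 41.5 and 31.3 TPM. The 10 genes together summed to 2162, 2294, 2367 and 2019 TPM in control replicates 1 to 4, and to 1265, 871, 495 and 584 TPM in A485 replicates 1 to 4. Every A485 library thus held a lower sum than every control library. Gcsh supplied 55.4 to 59.0% of the sum in control and 46.2 to 58.7% in A485 libraries. Without Gcsh the sums were 899.6 to 971 TPM in control and 248 to 523 TPM in A485 libraries.

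**Figure D1:**
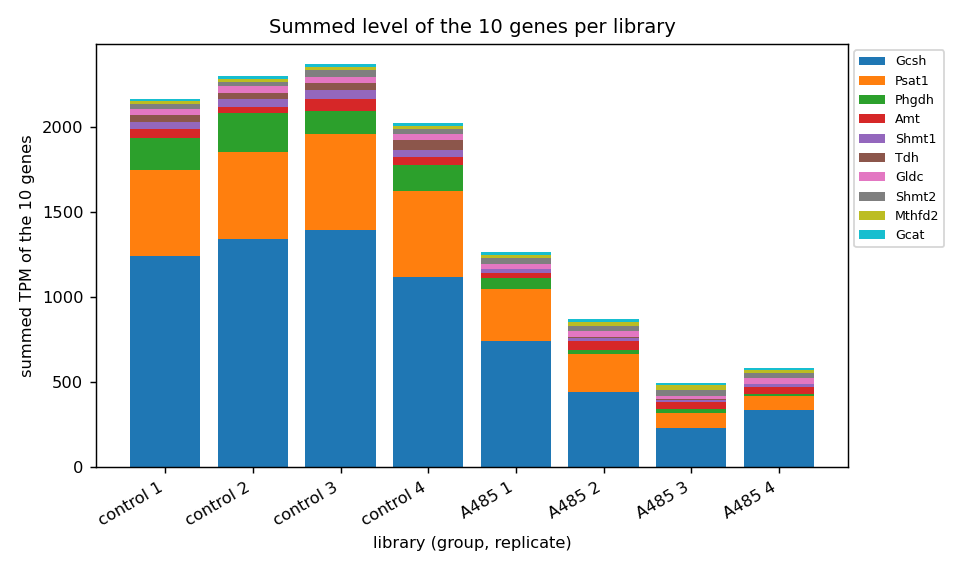
Summed TPM of the 10 genes in each library, stacked by gene (linear axis from 0; control and A485 replicates 1 to 4, n = 4 per group). The control bars reach 2019 to 2367 TPM and the A485 bars 495 to 1265 TPM, with A485 replicate 1 the highest of its group, and Gcsh and Psat1 fill most of every bar.

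Of the 10 genes, 7 were lower in A485 at an adjusted p of 0.05 in edgeR's quasi-likelihood test, 0 were higher, and Gcat, Shmt2 and Mthfd2 did not pass. Of all 12936 genes tested, 25.0% were lower and 29.7% higher by the same rule. In either direction 54.7% of genes passed. The groups did not overlap in CPM for 6 of the 10, all lower, against 24.6% of genes tested that were lower and 51.5% in either direction. Since Tdh was picked from this comparison, nothing is read from these counts. The median log2 fold change was -1.07 over the 10 genes and -0.65 without Tdh, against 0.085 over all genes tested. With libraries scaled by total counts alone, the median of all genes moved to 0.372, and 5 of the 10 were lower, Gldc and Amt having lost their call. That scaling also raised the share of higher genes among all genes called from 54.2 to 68.2%. Values are relative to the other genes of the same library, since no spike-in is described.

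**Figure D2:**
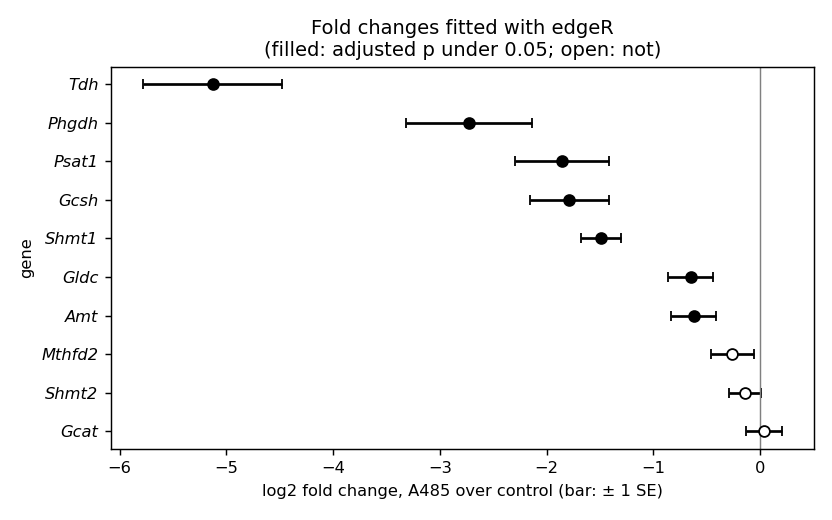
Log2 fold change of A485 over control for each of the 10 genes, fitted with edgeR over 4 libraries per group; bars are 1 SE on either side, and filled points are past an adjusted p of 0.05. Tdh lies at -5.13, Phgdh at -2.73, Psat1, Gcsh and Shmt1 between -1.86 and -1.49, and Gcat, Shmt2 and Mthfd2 (open points) between -0.26 and 0.04.

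Tdh encodes threonine dehydrogenase, the first enzyme of threonine breakdown to glycine in mitochondria. The gene (NCBI gene 58865) lies on chromosome 14 at 63492347 to 63509092 (GRCm38.p6). Its level was 79.8, 71.4, 64.9 and 98.3 CPM (counts relative to a library size scaled with TMM factors) in control replicates 1 to 4. In A485 replicates 1 to 4 it was 5.58, 1.79, 1.09 and 0.554 CPM. The groups were far apart, and A485 replicate 1 was the highest of its group. The group means were 78.6 ± 14.5 and 2.25 ± 2.28 CPM (mean ± SD over 4 libraries per group), a 34.9-fold difference. The fitted log2 fold change was -5.13 ± 0.65 (SE).

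Expressed as a share of the control mean, Tdh stood at 7.10, 2.28, 1.39 and 0.706% in A485 replicates 1 to 4. The estimated counts behind these shares were 136, 49, 32 and 15, against 1557 to 2118 in control libraries. Without A485 replicate 1 the log2 fold change was -6.10, without A485 replicates 1 and 2 it was -6.58, and without A485 replicates 3 and 4 it was -4.42. The noncoding gene Gm17232, not analysed here, overlaps Tdh over 9245 bases. Whether counting used strand is not stated, so reads of the overlap cannot be assigned with certainty. The same holds for the overlaps given for other genes.

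Gcat (chr15:79030874-79042531) encodes the ligase that cleaves the product of Tdh into glycine and acetyl-CoA. It had 29.6, 36.4, 31.2 and 34.0 CPM in control replicates 1 to 4 and 40.7, 37.5, 25.2 and 32.0 CPM in A485 replicates 1 to 4. The groups overlapped on both sides, with A485 replicate 1 the highest and A485 replicate 3 the lowest of all 8 libraries. The log2 fold change was 0.04 ± 0.17 (SE), and its sign changed when single libraries were left out. The pair of enzymes of this route therefore showed unlike values. Within a library the ratio of Tdh to Gcat in TPM was 2.52 to 3.69 in control libraries and 0.0222 to 0.176 in A485 libraries. Its mean on the log2 scale went from 1.61 ± 0.27 to -4.05 ± 1.22 (SD, n = 4 per group). Such a ratio does not depend on how libraries are scaled. Gcat shares 647 bases with Galr3, which was at 0.0866 CPM or less on average in either group.

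Phgdh (chr3:98313171-98339969) encodes the first enzyme of serine synthesis, phosphoglycerate dehydrogenase. It had 343, 426, 232 and 272 CPM in control replicates 1 to 4 and 116, 30.5, 27.7 and 17.3 CPM in A485 replicates 1 to 4. All A485 libraries lay below all control libraries, and A485 replicate 1 stood well above the other 3 of its group. The log2 fold change was -2.73 ± 0.59 (SE), or -3.67 without A485 replicate 1, -3.84 without A485 replicates 1 and 2, and -2.12 without A485 replicates 3 and 4.

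Psat1 (chr19:15905123-15925059) encodes phosphoserine aminotransferase, the second enzyme of the route. Its control values were close together, at 1099, 1110, 1121 and 1075 CPM, and its A485 values were 592, 349, 136 and 139 CPM in replicates 1 to 4. The coefficient of variation was 1.79% in control and 71.2% in A485 libraries. The groups did not overlap, and A485 replicates 3 and 4 were the lowest. The log2 fold change was -1.86 ± 0.44 (SE), or -3.02 without A485 replicates 1 and 2 and -1.23 without A485 replicates 3 and 4. The ratio of Phgdh to Psat1 in TPM went from a log2 mean of -1.59 ± 0.38 to -2.55 ± 0.58 (SD, n = 4 per group). The nearest libraries of the 2 groups, both replicate 3, differed there by only -2.04 against -2.05.

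Psph, the phosphatase that completes serine synthesis, had 21.5 to 25.4 CPM in control and 43.2 to 66.5 CPM in A485 libraries. It rose, with a log2 fold change of 1.21 with an SE of 0.16 (edgeR adjusted p = 0.000208). The first and second enzymes of the route were thus lower and the last was higher in the same libraries.

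**Figure D3:**
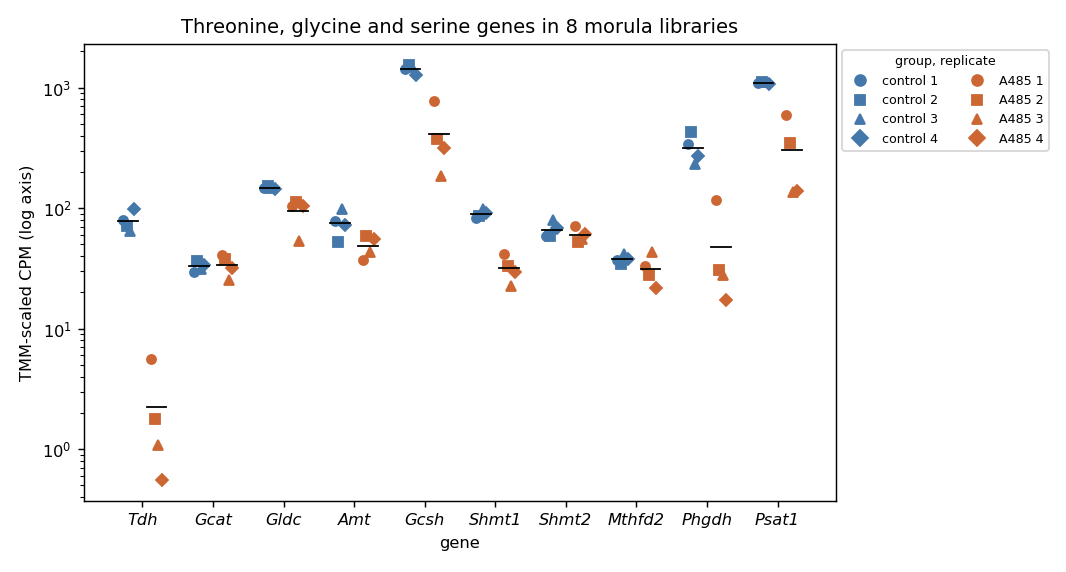
TMM-scaled CPM (log axis) of the 10 genes in the 4 control and 4 A485 libraries; each symbol is a library, its shape gives the replicate number, and black lines are group means. For Tdh, Gldc, Gcsh, Shmt1, Phgdh and Psat1 the groups do not overlap, and A485 replicate 1 is the highest of its group for Tdh, Gcsh, Shmt1, Phgdh and Psat1.

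Gcsh (chr8:116981967-116993498) encodes the H protein, the lipoylated carrier of the glycine cleavage system. It had 1426, 1547, 1485 and 1274 CPM in control replicates 1 to 4 and 778, 375, 185 and 316 CPM in A485 replicates 1 to 4. All A485 libraries lay below all control libraries. On the log2 scale the fitted change was -1.79 ± 0.37 (SE), or -2.54 without A485 replicates 1 and 2 and -1.31 without A485 replicates 3 and 4. Gcsh held the most abundant message of the 10 genes in every library.

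Gldc (chr19:30098441-30175441) encodes the glycine decarboxylase that starts the cleavage. It had 147, 153, 147 and 144 CPM in control replicates 1 to 4, and 104, 113, 53.5 and 105 CPM in A485 replicates 1 to 4. The groups did not overlap in CPM, and A485 replicate 3 was far below the other 3. The pseudogene Rpl31-ps20, not analysed here, lies within the gene. In TPM the groups overlapped, with 39.3 in A485 replicate 2 inside the control range of 37.0 to 40.4. On the log2 scale the fitted change was -0.65 ± 0.21 (SE), and the call was lost without control replicate 2, at -0.61.

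Amt (chr9:108296905-108302302) encodes the aminomethyltransferase that passes the carbon unit to folate. It had 77.6, 52.5, 98.9 and 71.9 CPM in control replicates 1 to 4 and 37.2, 58.9, 43.6 and 55.3 CPM in A485 replicates 1 to 4. The groups overlapped, since control replicate 2 was below A485 replicates 2 and 4. On the log2 scale the fitted change was -0.62 ± 0.21 (SE), and it did not pass when control replicate 1, control replicate 3, A485 replicate 1 or A485 replicate 3 was left out, at values from -0.63 to -0.51. It was also lost without A485 replicates 3 and 4 (-0.65), with upper-quartile factors (-0.53) and with a filter of 5 CPM (-0.50).

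Within a library, Gldc was at 0.0289 to 0.0331 of Gcsh in TPM in control and at 0.0393 to 0.0969 in A485 libraries, with no overlap. Amt was at 0.0261 to 0.0512 of Gcsh in control and at 0.0367 to 0.180 in A485 libraries, with A485 replicate 1 inside the control range. In A485 replicate 1 Amt was at 49.5% and Gcsh at 54.3% of its control mean, whereas in A485 replicates 2, 3 and 4 Amt was at 58.0 to 78.4% and Gcsh at 12.9 to 26.2%. These ratios were not tested. Dld, the lipoamide dehydrogenase that the complex shares with other mitochondrial dehydrogenases, had a log2 fold change of 0.25 with an SE of 0.14 (edgeR adjusted p = 0.16). It passed without A485 replicates 1 and 2, at 0.35 (edgeR adjusted p = 0.0494), with a filter of 5 CPM, at 0.37, and under total-count scaling, at 0.54.

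**Figure D4:**
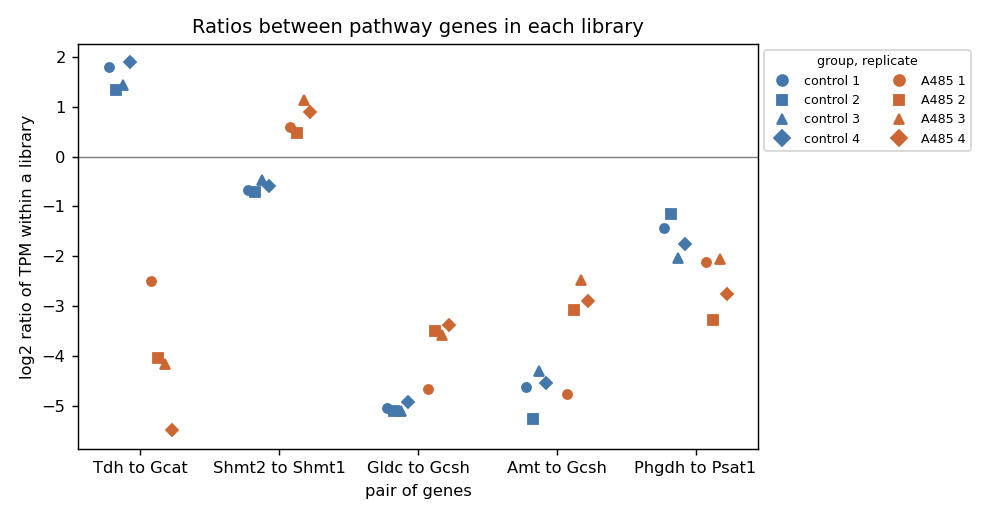
Log2 ratio of TPM between 2 genes of the same library, for 5 pairs; each symbol is a library and its shape gives the replicate number. The ratio of Tdh to Gcat goes from a mean of 1.61 in control to -4.05 in A485 libraries, that of Shmt2 to Shmt1 from -0.61 to 0.78, and A485 replicate 1 is the nearest of its group to the control libraries for Gldc and Amt over Gcsh.

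The serine hydroxymethyltransferases differed in their values. Shmt1 (chr11:60788897-60811265), the cytosolic isozyme, had 82.2, 85.6, 97.9 and 90.4 CPM in control replicates 1 to 4 and 41.9, 33.2, 22.4 and 29.3 CPM in A485 replicates 1 to 4. The groups were separate, and the log2 fold change was -1.49 ± 0.19 (SE). Its value stayed between -1.80 and -1.25 when libraries were left out singly or in the pairs named above.

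Shmt2 (chr10:127517123-127522444), the mitochondrial isozyme, had 58.3, 59.2, 79.5 and 68.2 CPM in control replicates 1 to 4 and 71.4, 52.0, 55.8 and 61.5 CPM in A485 replicates 1 to 4. The groups overlapped broadly. The gene shares 32 bases with Ndufa4l2, whose mean went from 0.0220 to 3.48 CPM. For Shmt2 the log2 fold change was -0.14 ± 0.15 (SE). In TPM, Shmt2 was at 0.614 to 0.720 of Shmt1 in control libraries and at 1.39 to 2.21 in A485 libraries. The order of the isozymes was thus reversed in every A485 library, with a difference of 1.38 in mean log2 ratio.

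Mthfd2 (chr6:83305704-83326011) encodes the mitochondrial dehydrogenase and cyclohydrolase that oxidises the folate-bound carbon unit. It had 37.1, 34.2, 41.5 and 38.0 CPM in control replicates 1 to 4 and 33.0, 27.6, 43.4 and 21.9 CPM in A485 replicates 1 to 4. A485 replicate 3 was above every control library and the other 3 were below. On the log2 scale the fitted change was -0.26 ± 0.20 (SE), and it passed the threshold only without A485 replicate 3 among the libraries left out singly, at -0.46. Under total-count scaling the signs of Shmt2 and Mthfd2 turned, at 0.13 and 0.04.

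A485 replicate 1 was the A485 library nearest to the control mean for 6 of the 10 genes, Tdh, Gcsh, Shmt1, Mthfd2, Phgdh and Psat1. It held this place for 49.8% of all genes called lower, against 16.3, 13.4 and 20.6% for A485 replicates 2, 3 and 4. That share covers only genes called lower, whereas the 10 include Gcat, Shmt2 and Mthfd2, which were not called, and the 6 include Mthfd2. In the authors' deposited table the log2 fold changes of the 10 genes ran from -5.15 for Tdh to 0.02 for Gcat, with Phgdh at -2.76, Psat1 at -1.88, Gcsh at -1.82 and Shmt1 at -1.52.

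The bases just before the start site were compared for 9 of the 10 genes, those found in a RefSeq promoter table of GRCm38.p6. The CCAAT box, searched as CCAAT on both strands from 250 bases before to 50 after each start, was present for Amt, Gcsh, Gldc, Mthfd2, Phgdh, Psat1 and Shmt1. These are 7 of 9 genes, against 37.4% of all 32851 promoters of the table and 38.4% of those of genes tested here. The match was absent for Gcat and Shmt2. The 7 hold Mthfd2, which did not pass, beside 6 genes that were lower. The GC box (GGGCGG) was found for 6 of 9 genes, against 35.7% of all promoters and 61.0% of those of tested genes. Psat1, which has an inner and an outer start site in the table, was counted if either held a match, whereas the shares are per promoter. Its CCAAT matches lay at the outer site and its GC boxes at the inner. The E-box (CACGTG) was found for Gcat alone and TATAAA for Phgdh alone, where it overlapped a CCAAT match, against 7.2 and 13.6% of all promoters and 9.8 and 7.2% of those of tested genes. Neither TGACGTCA nor TGATGNAA, a composite site for C/EBP and ATF factors, was found in any of the 9, against 1.8 and 4.0% of all promoters and 3.0 and 2.3% of those of tested genes.

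The 8 stretches of 120 bases directly before the start site are shown, because they set 5 genes that were lower (Phgdh, Psat1, Gcsh, Shmt1 and Amt) beside the 3 that did not pass (Mthfd2, Shmt2 and Gcat). They read 5′ to 3′ on the strand of the gene, with matches to the CCAAT box or its complement ATTGG and to the GC box or its complement in capitals. The Phgdh stretch lies at chr3:98339970-98340089 on the minus strand, Psat1 (the outer of its start sites in the table) at chr19:15925060-15925179 on the minus strand and Gcsh at chr8:116993499-116993618 on the minus strand. Shmt1 lies at chr11:60811266-60811385 and Shmt2 at chr10:127522445-127522564, both on the minus strand, and Gcat at chr15:79030754-79030873 on the plus strand. Amt lies at chr9:108296785-108296904 on the plus strand and Mthfd2 at chr6:83317605-83317724 on the minus strand (RefSeq, GRCm38.p6). The Mthfd2 stretch lies before a start site inside the span given above for the gene, which reaches to 83326011.
Phgdh: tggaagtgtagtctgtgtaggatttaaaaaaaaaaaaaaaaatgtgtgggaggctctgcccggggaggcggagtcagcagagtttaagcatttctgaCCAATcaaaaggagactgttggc
Psat1: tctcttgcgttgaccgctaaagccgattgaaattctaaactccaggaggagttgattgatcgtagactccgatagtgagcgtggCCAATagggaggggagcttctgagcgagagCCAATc
Gcsh: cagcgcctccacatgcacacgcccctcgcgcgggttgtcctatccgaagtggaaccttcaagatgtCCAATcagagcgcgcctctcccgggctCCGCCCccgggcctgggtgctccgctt
Shmt1: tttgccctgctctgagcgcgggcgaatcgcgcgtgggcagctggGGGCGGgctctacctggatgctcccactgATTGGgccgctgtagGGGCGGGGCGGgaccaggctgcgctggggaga
Amt: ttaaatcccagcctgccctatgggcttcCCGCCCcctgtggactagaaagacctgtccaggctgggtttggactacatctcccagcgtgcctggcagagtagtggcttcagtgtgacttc
Mthfd2: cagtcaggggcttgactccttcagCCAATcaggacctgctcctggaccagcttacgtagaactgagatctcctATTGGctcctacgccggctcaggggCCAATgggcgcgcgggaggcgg
Shmt2: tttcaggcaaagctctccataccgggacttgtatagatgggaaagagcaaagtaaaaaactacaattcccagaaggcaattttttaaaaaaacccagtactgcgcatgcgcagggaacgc
Gcat: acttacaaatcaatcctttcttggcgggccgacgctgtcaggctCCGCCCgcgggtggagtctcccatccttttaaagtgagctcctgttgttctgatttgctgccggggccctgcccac

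In these stretches a CCAAT match began 23 bases before the start in Phgdh, 36 and 6 bases before in Psat1, 54 bases before in Gcsh and 47 bases before in Shmt1, there as ATTGG. Mthfd2, which did not pass, held CCAAT matches 96, 47 and 22 bases before the start, and Amt, which was lower, held none in its stretch, its match lying 210 bases before the start. In Gldc the match began 66 bases before the start. Shmt2 held no match to any of the 6 motifs in this window, and Gcat held a GC box 76 bases before the start. Tdh is not among the genes compared for promoter sequence. A match describes letters only, and binding was not measured.

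Other genes of the same metabolism were taken from 5 lists chosen by function, with earlier results of these data known. Their counts are set beside the 25.0% of tested genes that were lower and the 29.7% that were higher. In serine and glycine synthesis, breakdown and transport, 8 of 14 tested genes rose and 1 fell (2 without A485 replicate 3, or 3 and 4), with a median log2 fold change of 0.58. Under total-count scaling 10 of this list rose and 0 fell. Slc6a9, a plasma membrane glycine transporter, went from 0.680 ± 0.243 to 9.36 ± 1.99 CPM, and Slc1a4, a neutral amino acid transporter that takes up serine, from 0.456 ± 0.411 to 25.7 ± 10.9 CPM (mean ± SD over 4 libraries; log2 fold changes of 3.77 and 5.81). Sfxn3, a sideroflexin of the mitochondrial membrane, went from 0.0839 ± 0.140 to 11.2 ± 3.79 CPM (mean ± SD over 4 libraries per group). Its log2 fold change was 6.92, or 9.09 without control replicate 3, and both rest on very few control counts. Slc25a38, the mitochondrial glycine carrier, had a log2 fold change of 0.21 with an SE of 0.13 (edgeR adjusted p = 0.197), and it passed under total-count scaling, at 0.50, and with a filter of 5 CPM, at 0.34. Tha1, a threonine aldolase, and Sds, serine dehydratase, were under the filter on low counts.

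Among the partners of glycine cleavage and lipoylation, 3 of 9 fell and 2 rose, while under total-count scaling 1 fell and 4 rose. Lias, which makes the lipoyl group carried by the H protein, fell from 163 ± 11.2 to 53.6 ± 14.4 CPM (mean ± SD over 4 libraries per group), a log2 fold change of -1.60 with an SE of 0.18 (edgeR adjusted p = 8.2e-05). Bola3 and Nfu1, which deliver iron-sulfur clusters to lipoyl synthase, had log2 fold changes of -0.60 and -0.48, and both passed. Neither passed under total-count scaling, with -0.32 for Bola3 (edgeR adjusted p = 0.0899) and -0.20 for Nfu1 (edgeR adjusted p = 0.287). Nfu1 also did not pass without A485 replicates 1 and 2 (edgeR adjusted p = 0.068) or with a filter of 5 CPM (edgeR adjusted p = 0.051). Glrx5, a glutaredoxin of the same iron-sulfur pathway, rose by 1.34 ± 0.16 (SE) on the log2 scale. The count of risen genes was 1 when any single library except A485 replicate 1 was left out, and 1 without A485 replicates 3 and 4.

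Among folate enzymes and carriers, 8 of 18 fell and 4 rose, and the number that rose ran from 1 to 5 over the libraries left out. It was 1 without control replicate 4 and 2 without control replicate 1, 2 or 3, A485 replicate 3 or 4, or A485 replicates 3 and 4. Tyms, thymidylate synthase, fell from 688 ± 33.8 to 185 ± 26.7 CPM, Slc46a1, a folate transporter, from 223 ± 19.2 to 55.3 ± 9.23 CPM, and Mthfd1, the cytosolic folate enzyme with 3 activities, from 89.3 ± 6.48 to 38.4 ± 8.64 CPM (mean ± SD over 4 libraries per group). Mthfd1l, which releases formate in mitochondria, fell, at -2.02 ± 0.43 (SE) on the log2 scale, or at -2.77 without A485 replicates 3 and 4. Ggh, which trims folate polyglutamates, rose, with a log2 fold change of 2.78. Slc25a32, the mitochondrial folate carrier, had a log2 fold change of 0.55 with an SE of 0.21 (edgeR adjusted p = 0.0496), and its call was lost without any single library except A485 replicate 2, with adjusted p of 0.055 to 0.117, and also with RLE factors (0.0554) and with no filter (0.0992). Mthfd2l, the isozyme of Mthfd2, was under the filter on low counts.

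In the methionine cycle and transsulfuration, 9 of 19 fell and 3 rose. Bhmt, which remethylates homocysteine with betaine, had 2711 to 3119 CPM in control and 318, 165, 68.9 and 34.7 CPM in A485 replicates 1 to 4. Its log2 fold change was -4.30 ± 0.65 (SE; edgeR adjusted p = 0.000673), or -5.02 without A485 replicate 1, -5.82 without A485 replicates 1 and 2 and -3.58 without A485 replicates 3 and 4. Dmgdh, which breaks down the dimethylglycine that Bhmt makes, went from 33.6 ± 1.93 to 1.99 ± 1.55 CPM and Bhmt2 from 53.4 ± 8.54 to 1.66 ± 1.19 CPM (mean ± SD over 4 libraries per group). The log2 fold change of Dmgdh was -4.08, or -5.61 without A485 replicates 1 and 2 and -3.35 without A485 replicates 3 and 4, and that of Bhmt2 was -5.02, or -5.64 without A485 replicate 1. Mat2a, which makes S-adenosylmethionine, and Srm, spermidine synthase, fell, with log2 fold changes of -0.94 and -1.30. Aldh7a1, an aldehyde dehydrogenase that can form betaine, rose from 3.87 ± 0.866 to 71.0 ± 30.7 CPM (mean ± SD over 4 libraries per group), and its log2 fold change of 4.20 was 3.57 without A485 replicates 3 and 4.

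In the response to amino acid starvation, 10 of 25 rose, 14 did not pass and 1 fell (0 without control replicate 2 or 4 or A485 replicate 4). Under total-count scaling 14 of this list rose and 0 fell. Atf4, the transcription factor of that response, had 66.1 to 125.5 CPM in control and 128 to 279 CPM in A485 libraries, a log2 fold change of 0.96 with an SE of 0.25 (edgeR adjusted p = 0.00897). Nupr1 and Atf3, stress-induced regulators, rose with log2 fold changes of 5.17 and 6.78, and Slc7a11, the cystine transporter, and Eif2ak3, the kinase PERK, with 2.47 and 2.16. These are the genes of smallest p in the list, so they do not stand for the list as a whole. Asns, asparagine synthetase, had a log2 fold change of -0.08 with an SE of 0.25 (edgeR adjusted p = 0.813). Phgdh and Psat1, which that response is known to activate in other cells, were lower in the same libraries. Psph was higher there, and Shmt2 and Mthfd2 did not pass. Whether that response acted on any of these genes was not tested. Over the 5 lists, 27 genes rose and 22 fell, and under total-count scaling 37 rose and 16 fell.

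**Figure D5:**
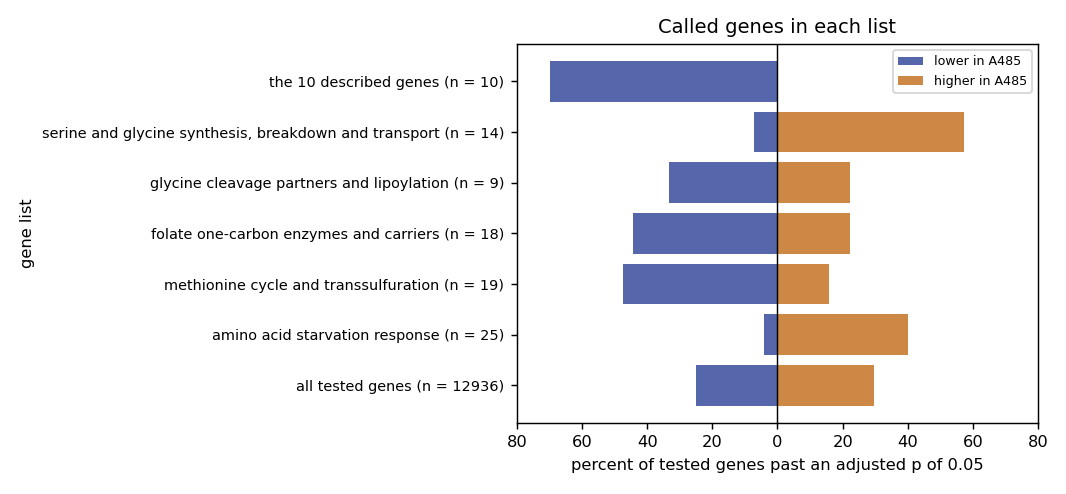
Percent of tested genes past an adjusted p of 0.05, lower (left) or higher (right) in A485, in the 10 described genes, the 5 functional lists and all tested genes; n is the number of tested genes. All tested genes show 25.0% lower and 29.7% higher, while 8 of 14 genes of serine and glycine synthesis, breakdown and transport rose and 9 of 19 of the methionine cycle and transsulfuration fell.

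The genes with the profile most like that of Tdh were sought with the log2 CPM of each library less the control mean of the gene, over 8 libraries. By root mean square distance they were Etv5 (0.47), Sept12 (0.58), Syt2 (0.58), Ptger1 (0.59) and Bhmt (0.61). All had A485 means of 0.448 CPM or less except Bhmt with 147 CPM, so their A485 profiles rest partly on the prior count of 2. Bhmt, the only one of them in the lists above, had A485 profile values of -3.18, -4.13, -5.39 and -6.38 in replicates 1 to 4.

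Many tested markers of stage and of other cell types moved with the groups. Over all tested genes, 25.0% were lower and 29.7% higher. Of 15 tested markers of morula and blastocyst, 11 fell and 2 rose. The summed TPM of these markers overlapped between the groups, at 2208 to 2472 in control and 1852 to 3396 in A485 libraries. The 3 most abundant, Krt18 with 508 ± 90.4 CPM, Krt8 with 373 ± 50.9 CPM and Pou5f1 with 845 ± 98.5 CPM (SD, n = 4), were present in control embryos, and their log2 fold changes were 1.12, 1.71 and -1.53. Of 10 tested markers of the 2-cell stage, 9 rose and 1, Pramel6, fell. The summed TPM was 251 to 368 in control and 75.9 to 749.5 in A485 libraries, and Pramel6 supplied most of the control sum, with 248 to 365 TPM. Tcstv3 and Gm6763, the next most abundant, had means of 0.770 and 0.750 CPM in control and 51.8 and 76.3 CPM in A485 libraries. These A485 means were carried by replicates 1 and 2. In A485 replicates 1 to 4 Tcstv3 had 66.0, 129.5, 6.47 and 5.17 CPM, and Gm6763 had 176.6, 124.1, 3.74 and 0.85 CPM. For Gm6763 the groups overlapped, with 2.86 CPM in control replicate 1. Of 12 tested oocyte markers, 4 rose and 1 fell, and the summed TPM of the 15 found was 33.9 to 40.5 in control and 102 to 246 in A485 libraries. Their most abundant members were Uchl1, Zp3 and Padi6, with log2 fold changes of 3.22, 0.29 (not past the threshold) and -3.04. Uchl1 supplied most of the A485 sum, with 85.5 to 217.5 TPM, against 5.93 to 15.7 TPM in control libraries. The rise of the sum therefore does not stand for the oocyte markers as a group.

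Among 14 cumulus and granulosa markers, 5 were tested, 3 rose and 1 fell, and 10 stayed under 1 TPM in every library. The summed TPM was 14.5 to 26.6 in control and 26.4 to 44.1 in A485 libraries. Amhr2, Cyp11a1 and Hsd17b1 were the most abundant, with means of 28.3, 0.0464 and 7.04 CPM in control and 33.5, 15.2 and 1.07 CPM in A485 libraries. Among 11 blood and fibroblast markers, 3 were tested, 2 rose and 9 stayed under 1 TPM in every library. Their summed TPM was 20.9 to 44.9 in control and 357 to 1214 in A485 libraries, carried by Hba-a1, with 12.3 ± 4.11 and 178 ± 103 CPM (mean ± SD over 4 libraries per group). Hba-a2 and Pdgfra followed, with 0.244 and 1.66 CPM in control and 3.84 and 1.06 CPM in A485 libraries, while the beta-globin genes Hbb-bs and Hbb-bt, named after their values were seen, stayed under 1 TPM. The part of stage or of other cells in the values of the 10 genes was not tested.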

How the data were processed

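Polyadenylated RNA of 8 morula pools was measured after cDNA preamplification and transposase-based library construction, per the labels' protocols. Per the submitters' processing notes, the tools included RSEM 1.2.28, HISAT2 2.2.1 and DESeq2 1.40.2. Their roles are not stated. The build named there is GRCm38.p6. Per the file headers, the deposited table holds estimated counts (18.2% not whole), FPKM, TPM and normalized counts (a scaled signal) per library, and the authors' own log2 fold change, p-value and q-value. Whether pools came from separate litters is not stated, so p-values measure the spread between these pools.

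Estimated counts were rounded and tested in R 4.3.3 with the quasi-likelihood test of edgeR 4.0.16 (filterByExpr, TMM factors, robust fits, no covariate). P-values of 12936 genes were adjusted by Benjamini-Hochberg, and genes under 0.05 were called. The SE was taken as the absolute log2 value over the root of the F statistic. Levels between genes use deposited TPM. Log2 CPM has a prior count of 2. Alternatives were DESeq2 1.42.0, limma-voom 3.58.1, RLE, upper-quartile and total-count scaling, no filter, 5 CPM in 4 libraries, a replicate block, FPKM and leaving out libraries. Leaving out A485 replicates 1 and 2 or 3 and 4 was added after seeing the data.

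The 10 genes and the lists were chosen with earlier results of these data known. Named genes are the 10, up to 4 of smallest p per list among called genes with an average log2 CPM of at least 1, a fixed set, the 5 profiles nearest to Tdh and the 3 most abundant markers per list. A gene of the fixed set is not reported here. The orientation of promoter sequences was checked against GENCODE transcripts. Protein sequences were not used here. The test was checked on simulated data with the spread of the control libraries, which is smaller than that of the A485 libraries.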

Additional observations from a re-analysis of the deposited data

Results flagged for a closer look

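Within groups of 4 libraries, 1 library stood apart by Dixon's gap test at the 95% level in 10 of 92 groups looked at. For independent groups of normally distributed values chance alone marks about 1 in 20. That rate does not hold for groups with values at or near 0, and the groups share the same libraries. No excess over chance is therefore read from the count. Among the 10 genes these were Phgdh, with 115.7 CPM in A485 replicate 1 against 17.3 to 30.5 in the other 3, and Gldc, with 53.5 CPM in A485 replicate 3 against 104 to 113. A485 replicate 1 also stood apart for Eif2ak3, with 3.86 CPM against 8.65 to 9.63, and for Syt2, with 0.492 CPM against 0.0340 to 0.0732. Among control libraries, Mthfd1l had 7.54 CPM in replicate 2 against 5.61 to 5.68, and Etv5 had 9.88 CPM in replicate 4 against 7.31 to 7.46. The other such libraries were at under 1 CPM, namely Sfxn3 with 0.292 and Mthfd2l with 0.125 in control replicate 3, Sds with 0.0440 in control replicate 1 and Tha1 with 0.329 in A485 replicate 2.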

How the results depend on the processing

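Among the 10 genes, 7 were lower with DESeq2, limma-voom, RLE factors or no filter, 6 with upper-quartile factors or a filter of 5 CPM, 5 with total counts and 6 to 7 with a library left out, and 0 were higher under each of these settings. Replicate numbers do not pair the samples by the labels, and deviations of same-numbered libraries correlated at 0.005 to 0.104, so they share only a number. A replicate block gave 3508 higher and 3163 lower genes, against 3839 and 3238 without it, and 6 of the 10 lower, Amt having lost its call at -0.61. A filter of 5 CPM left 2526 higher genes, since fewer genes were tested. Signs turned for genes near 0. Gcat had a log2 fold change of -0.0049 with no filter, -0.06 to 0.16 with single libraries left out and -0.22 without A485 replicates 1 and 2. With total counts Shmt2 was at 0.13 and Mthfd2 at 0.04. Asns was at 0.02 with upper-quartile factors, 0.24 with total counts, 0.06 with a filter of 5 CPM, -0.34 to 0.08 with single libraries left out and 0.0029 without A485 replicates 1 and 2. The cause was not tested. Of 180 values of the 10 genes under alternatives, 160 kept direction and call, 11 lost the call, 1 gained it and 8 turned sign. The 15 to 136 estimated counts of Tdh in A485 libraries limit its precision.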
